A study of Homo sapiens with 12 samples.

Results

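The 38 genes described here encode the aminoacyl-tRNA synthetases and the scaffold proteins of the multi-synthetase complex. They were found by Ensembl identifier in each of 12 count tables that list 60668 genes, and all 38 were present. They fall into 19 cytosolic synthetase genes, 16 mitochondrial synthetase genes and 3 scaffold genes, AIMP1, AIMP2 and EEF1E1. The cells were MOLM-13, an established human line of acute myeloid leukaemia with a fusion of MLL (KMT2A) and a FLT3 internal tandem duplication. Cultures seeded in triplicate were kept for 8 days with gilteritinib plus MI-3454 (the combination), with MI-3454 alone, with gilteritinib alone or with the solvent DMSO, and each group has 3 libraries. MI-3454 is an inhibitor of the contact between menin and MLL proteins, and gilteritinib an inhibitor of FLT3, a receptor kinase. Drug doses were not in the sources used here. Libraries are named by group and replicate number. All 4 groups are 1 line, so the p-values measure the spread between cultures of that line.

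An aminoacyl-tRNA synthetase joins an amino acid to its tRNA, which the ribosome then reads. Human cells hold a set for the cytosol and a largely separate set, encoded in the nucleus and imported, for the mitochondrial ribosome. GARS1 and KARS1 serve both places, EPRS1 joins glutamate and proline activities in a single protein, and FARSA and FARSB are subunits of a single enzyme. Several cytosolic synthetases (EPRS1, IARS1, LARS1, MARS1, QARS1, RARS1 and KARS1 in these lists) sit in a complex held together by the scaffolds. When amino acids run short or the endoplasmic reticulum is stressed, the factor ATF4 is known to raise transcription of many cytosolic synthetase genes together with genes of amino acid synthesis such as ASNS. WARS1 is the member best known for a different input, induction by interferon gamma.

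Each library held 6472940 to 12051457 reads counted to genes, and levels are given as CPM, reads of a gene scaled to a common library size after TMM normalisation. The share of reads that fell in no annotated gene moved with treatment. Taken over reads in a gene, in none or ambiguous, it was 32.6% ± 4.02 in the combination, 21.0% ± 4.13 with MI-3454, 17.0% ± 1.24 with gilteritinib and 18.1% ± 2.03 with DMSO (SD, n = 3 each). The part of this share in the results was not tested. All 6 myeloid markers checked were detected in every library, with summed levels of 14129 to 15309 CPM in the combination, 8158 to 9707 CPM with MI-3454, 1796 to 1963 CPM with gilteritinib and 1665 to 1842 CPM with DMSO, mostly LYZ; the part of this difference in the results was not tested. Among markers of other cell types, MS4A1 and HBB were at 0 in all libraries and CD3E and EPCAM at no more than 0.122 CPM. PECAM1 was the most abundant gene of that list. It had 494, 479.8 and 488 CPM in the combination libraries and 295, 295 and 295 CPM with MI-3454. With gilteritinib it had 239.6, 218 and 237 CPM, and with DMSO 195, 163 and 168 CPM. All libraries come from 1 line, and PECAM1 is not read here as a sign of another cell type. Its part in the results was not tested. In bulk RNA, fewer cells that express a gene and less of its RNA per cell cannot be told apart.

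The cytosolic set was the more abundant one in DMSO cells. Per kilobase of annotated exon, FARSA had the highest mean level with DMSO at 99.5 ± 13.3 CPM per kb, followed by AARS1 at 89.2 ± 3.66, EPRS1 at 81.4 ± 10.6, GARS1 at 81.1 ± 8.96 and QARS1 at 70.1 ± 7.004 CPM per kb (SD, n = 3). In that run of 5, each gene differed from the next by less than the sum of their SDs. The lowest cytosolic gene on this scale was HARS1 at 8.33 ± 0.0991 CPM per kb. The exonic length is joined over isoforms (7853 bases for HARS1 and 3369 for FARSB), so the order depends on the annotation as well as on the reads. IARS2 led the mitochondrial set at 24.7 ± 3.81 CPM per kb, and SARS2 at 1.59 ± 0.556 and VARS2 at 0.0558 ± 0.0456 CPM per kb closed the list. Of the exonic bases of SARS2, 57.0% also lie in other genes, and part of those of VARS2 do too. VARS2, with 1 to 13 reads per library, was the only member that failed the filter on low counts, so 37 members were tested. In the combination the order was different: QARS1 stood first at 72.7 ± 7.85 CPM per kb, ahead of FARSA at 54.7 ± 5.28 and VARS1 at 43.8 ± 3.83 CPM per kb.

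The promoters of a subset of the cytosolic genes share a short sequence. The C/EBP-ATF element, to which ATF4 binds as a dimer with a C/EBP protein, was searched as the letters TGATGNAAN on both strands of RefSeq promoters (GRCh38.p14), which run from 250 bases before the transcription start to 50 bases from it on. Of 38 members 33 had a promoter in the table; LARS1, VARS1, YARS1, AARS2 and VARS2 had none there. The letters were found in 7 of 16 cytosolic genes (43.8%), in 1 of 14 mitochondrial genes (7.14%, YARS2) and in 0 of 3 scaffold genes. A gene with several listed starts counted once if any held the letters. They were found in 3.61% of all 35116 promoters and in 2.72% of the 9973 tested genes with a promoter. The matches are shown because genes that hold them lead several of the comparisons that follow. Capitals mark the match, and each sequence reads 5′ to 3′ on the strand of its gene.
GARS1: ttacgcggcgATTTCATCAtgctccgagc
AARS1: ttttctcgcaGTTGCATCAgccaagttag
TARS1: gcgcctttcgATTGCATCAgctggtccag
IARS1: ttttcagcgcGTTGCATCAcctccgtgcg
MARS1: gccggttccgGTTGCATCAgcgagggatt
CARS1: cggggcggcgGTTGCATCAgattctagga
NARS1: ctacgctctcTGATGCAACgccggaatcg
YARS2: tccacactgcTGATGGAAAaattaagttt

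In GRCh38.p14 these windows lie at chr7:30594834-30594862 (GARS1, plus strand), chr16:70289676-70289704 (AARS1, minus strand), chr5:33440956-33440984 (TARS1, plus strand), chr9:92293693-92293721 (IARS1, minus strand), chr12:57488053-57488081 (MARS1, plus strand), chr11:3057408-3057436 (CARS1, minus strand), chr18:57621804-57621832 (NARS1, minus strand) and chr12:32756076-32756104 (YARS2, minus strand). In GARS1, AARS1, TARS1, IARS1, MARS1 and CARS1 the element is written on the strand opposite to the gene, so it reads here as its reverse complement. With the first transcribed base as position 0, the match began at -34 in GARS1, -14 in IARS1, -5 in MARS1, -3 in CARS1, 1 in TARS1 and 14 in NARS1, and at -188 in AARS1. It therefore lay within 34 bases of the start in all of the cytosolic matches but AARS1. The distance is visible in the 250 bases before the start of GARS1 (chr7:30594628-30594877, plus strand) and of AARS1 (chr16:70289507-70289756, minus strand), the 2 holders with the largest falls under the combination.
GARS1: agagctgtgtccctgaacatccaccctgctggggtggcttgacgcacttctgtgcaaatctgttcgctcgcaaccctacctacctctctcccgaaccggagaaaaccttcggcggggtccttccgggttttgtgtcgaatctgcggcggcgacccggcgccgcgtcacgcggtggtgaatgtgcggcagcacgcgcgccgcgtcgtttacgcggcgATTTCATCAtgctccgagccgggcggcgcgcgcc
AARS1: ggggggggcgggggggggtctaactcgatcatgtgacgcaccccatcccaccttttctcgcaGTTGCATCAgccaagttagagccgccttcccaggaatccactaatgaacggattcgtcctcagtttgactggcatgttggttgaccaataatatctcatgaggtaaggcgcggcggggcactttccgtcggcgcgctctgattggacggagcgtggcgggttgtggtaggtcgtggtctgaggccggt

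The E-box CACGTG, a palindrome bound by MYC among others, was searched in the same promoters. It was found in 1 of 16 cytosolic genes (6.25%, IARS1, at a place that does not overlap its C/EBP-ATF match). Of the mitochondrial genes 3 of 14 held it (21.4%, MARS2, CARS2 and EARS2), and of the scaffolds AIMP2 did. The shares were 12.8% of tested genes and 7.26% of all promoters. With counts this small, no difference between the sets is drawn from them. Under the combination MARS2 (-0.85) and EARS2 (-0.76) had the largest mitochondrial falls given further on, whereas CARS2 stood at -0.07 and was not called. WARS2, NARS2, YARS2, PARS2 and IARS2 fell with no match, and the part of the E-box in the falls was not tested. The mitochondrial matches lie at chr2:197705348-197705373 (MARS2, plus strand), chr13:110706503-110706528 (CARS2, minus strand) and chr16:23557350-23557375 (EARS2, minus strand).
MARS2: gcgcctctcaCACGTGctgtcagaac
CARS2: ctgggatgcaCACGTGcttcgctaac
EARS2: gggagaagccCACGTGtgctattcca

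The summed level of the 19 cytosolic synthetases was lower in every treated library than in any DMSO library. It was 2351, 2277 and 2169 CPM in the combination, 3584, 3562 and 3640.5 CPM with MI-3454, 3478, 3379.9 and 3395 CPM with gilteritinib and 4786, 4891 and 5264 CPM with DMSO. Those means are 45.5% (combination), 72.2% (MI-3454) and 68.6% (gilteritinib) of the DMSO mean. The 16 mitochondrial genes moved far less, with summed means of 475 ± 10.6 CPM in the combination (84.5% of the DMSO mean), 519 ± 11.8 CPM with MI-3454 (92.3%), 582 ± 11.7 CPM with gilteritinib (104%) and 562 ± 28.1 CPM with DMSO (SD, n = 3 each). The ratio of the cytosolic to the mitochondrial sum was accordingly 4.77 ± 0.204 in the combination, 6.93 ± 0.235 with MI-3454, 5.87 ± 0.0499 with gilteritinib and 8.86 ± 0.0243 with DMSO, and no library of one group overlapped another group. These sums are descriptions and carry no test.

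**Figure D1:**
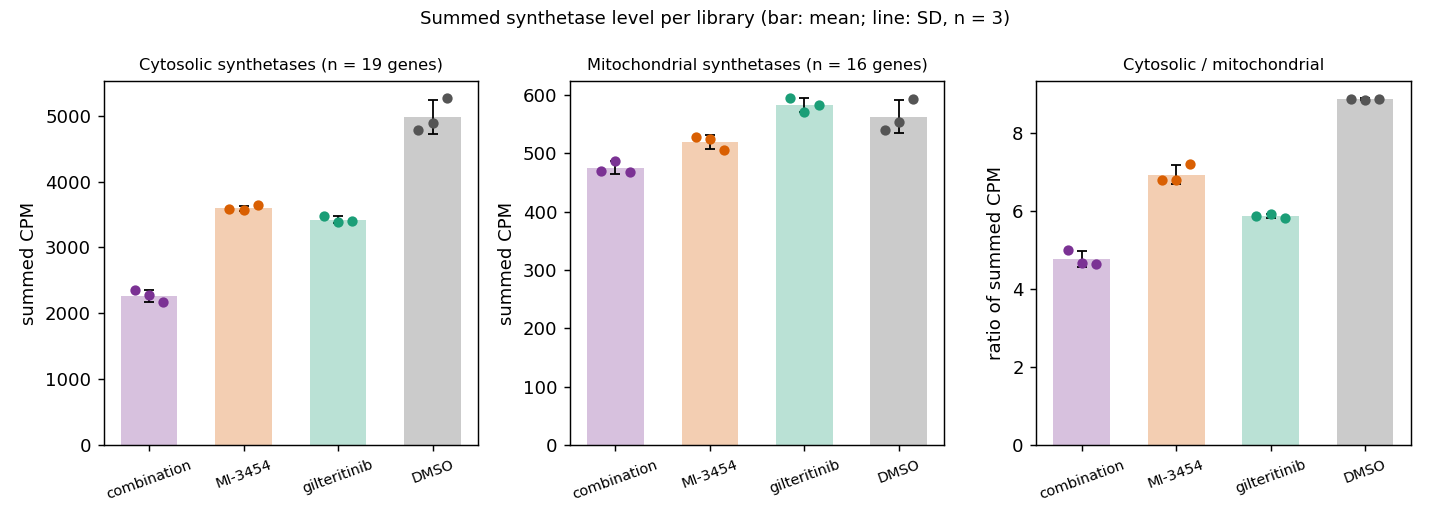
Summed CPM of the 19 cytosolic genes (left), of the 16 mitochondrial genes (middle) and the ratio of both sums (right); points are libraries, bars are means and lines are SDs of 3 libraries. The cytosolic sum lies between 2169 and 2351 CPM in the combination and between 4786 and 5264 CPM with DMSO, while the mitochondrial sums stay between 468 and 593.9 CPM in all 4 groups.

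Under the combination nearly the whole cytosolic set fell. In edgeR's quasi-likelihood test with adjusted p under 0.05 over 13972 genes, 18 of 19 cytosolic synthetases were lower than with DMSO and none was higher, in a comparison where 57.5% of all tested genes changed, 29.2% upward and 28.4% downward. The median log2 change of the cytosolic genes was -1.18, beside -0.00066 for all tested genes. All 12 cytosolic genes outside the complex fell, as did 6 of the 7 complex-bound genes. By catalytic class, EPRS1 aside, 13 of 17 class I synthetases of either compartment fell, and of 16 class II synthetases 11 fell and 1 rose.

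The largest fall was that of GARS1, the glycyl-tRNA synthetase. It stood at 71.3, 67.4 and 68.9 CPM in the combination libraries, 189, 191 and 177 CPM with MI-3454, 141, 131 and 133 CPM with gilteritinib and 335, 301 and 375 CPM with DMSO, a log2 change of -2.28 ± 0.11 (SE), or 4.86-fold lower in the combination than with DMSO (edgeR adjusted p = 5.27e-11). The 4 groups did not overlap: the combination was lowest, then gilteritinib, then MI-3454, then DMSO. AARS1, which charges alanine, had 99.6, 87.5 and 80.3 CPM in the combination libraries, 233, 243 and 264 CPM with MI-3454, 246, 254 and 238 CPM with gilteritinib and 383, 414 and 407 CPM with DMSO. Its combination libraries lay below all others by a wide margin, the single-agent libraries overlapped each other, and the log2 change under the combination was -2.17 ± 0.11 (edgeR adjusted p = 9.04e-11). Both genes hold the C/EBP-ATF letters printed with their promoters.

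TARS1, the threonyl enzyme, and IARS1, the isoleucyl enzyme of the complex, followed. TARS1 had 97.03, 99.1 and 91.4 CPM in the combination libraries, 219, 204 and 186 CPM with MI-3454, 199, 161 and 189 CPM with gilteritinib and 332, 274 and 339 CPM with DMSO. IARS1 had 135, 138 and 127 CPM in the combination libraries, 294, 287 and 269 CPM with MI-3454, 262, 223 and 256 CPM with gilteritinib and 412, 395 and 490.4 CPM with DMSO. In both genes the combination libraries were lowest and the DMSO libraries highest without overlap, with log2 changes of -1.72 ± 0.11 for TARS1 and -1.70 ± 0.11 for IARS1 under the combination (edgeR adjusted p = 1.68e-09 and 2.08e-09).

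WARS1 charges tryptophan and lies on chromosome 14 (chr14:100333788-100376805, minus strand, GRCh38). Its levels were 101, 100.5 and 101 CPM in the combination libraries, 137, 151 and 158 CPM with MI-3454, 94.97, 96.9 and 99.3 CPM with gilteritinib and 299, 348 and 332 CPM with DMSO. The combination and gilteritinib libraries stood close together, both below MI-3454, and the log2 change under the combination was -1.70 ± 0.11 (edgeR adjusted p = 8.6e-10). YARS1, the tyrosyl enzyme, had 102, 98.6 and 102 CPM in the combination libraries, 179.8, 194 and 197 CPM with MI-3454, 179, 158 and 163 CPM with gilteritinib and 238, 255 and 287 CPM with DMSO. All 3 of its treated groups lay below DMSO, the combination lowest, with a log2 change of -1.37 ± 0.11 (edgeR adjusted p = 1.52e-08). The remaining 12 called cytosolic genes had log2 changes between -0.45 (RARS1) and -1.35 (SARS1). The smallest of them, RARS1, was not called under total-count scaling (log2 change -0.35, edgeR adjusted p = 0.0659) or without DMSO 1 (-0.40, edgeR adjusted p = 0.0517).

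QARS1, the glutaminyl synthetase of the complex, was the cytosolic gene that was not called. It had 379, 343 and 305 CPM in the combination libraries, 345, 307 and 371 CPM with MI-3454, 383, 407 and 394 CPM with gilteritinib and 324, 366 and 301 CPM with DMSO, and the combination and DMSO libraries overlapped. The log2 change was 0.05 ± 0.12, with a 95% interval of -0.19 to 0.30 (edgeR adjusted p = 0.711).

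**Figure D2:**
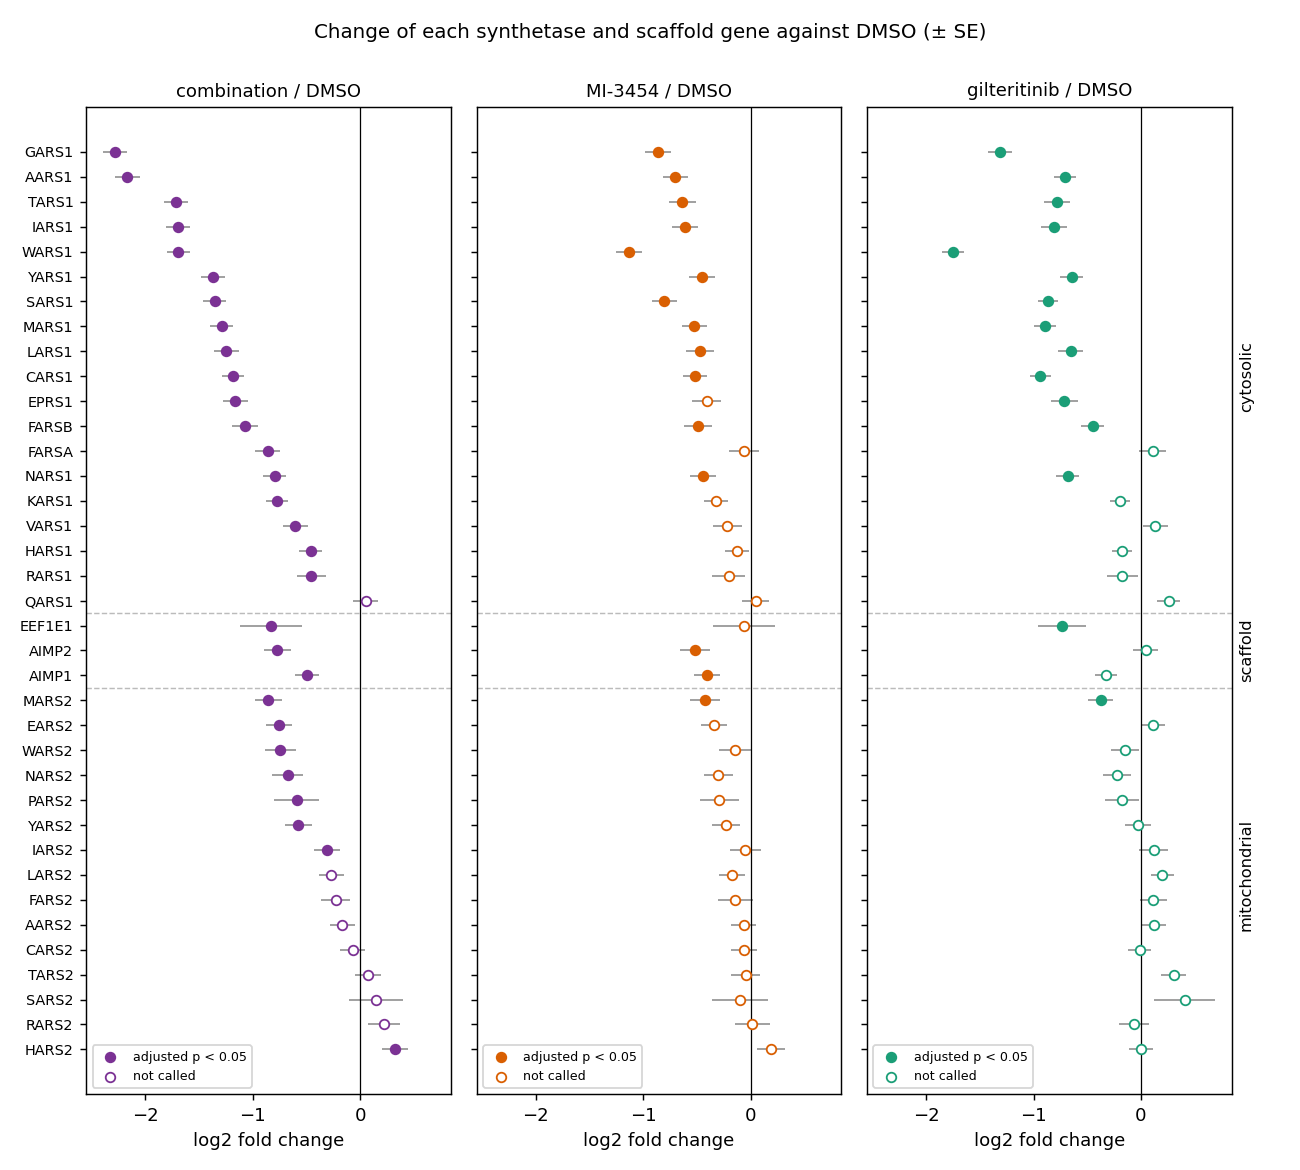
Log2 fold change against DMSO of each of the 37 tested members under the combination (left), MI-3454 (middle) and gilteritinib (right); points are edgeR estimates, lines are standard errors and filled points have adjusted p under 0.05. Cytosolic genes, ordered by their change in the combination, reach -2.28 (GARS1), whereas mitochondrial genes lie between -0.85 (MARS2) and 0.32 (HARS2) in the left panel.

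All 3 scaffold genes fell under the combination. AIMP1, the scaffold that is also the precursor of a secreted cytokine, had 49.6, 54.8 and 51.3 CPM in the combination libraries, 57.4, 58.8 and 49.6 CPM with MI-3454, 56.6, 57.98 and 60.8 CPM with gilteritinib and 75.8, 65.3 and 78.4 CPM with DMSO. AIMP2, which bridges subcomplexes, had 20.95, 19.9 and 20.5 CPM in the combination libraries, 23.8, 22.6 and 27.1 CPM with MI-3454, 34.4, 38.7 and 35.2 CPM with gilteritinib and 31.2, 35.3 and 38.6 CPM with DMSO. EEF1E1 (also named AIMP3), a low gene here, had 2.35, 5.50 and 2.98 CPM in the combination libraries, 6.36, 8.34 and 3.70 CPM with MI-3454, 4.18, 3.65 and 3.63 CPM with gilteritinib and 7.55, 4.65 and 7.02 CPM with DMSO. The combination libraries of AIMP1 and AIMP2 lay below their DMSO libraries, while those of EEF1E1 overlapped DMSO. The log2 changes under the combination were -0.49 ± 0.11 for AIMP1, -0.77 ± 0.13 for AIMP2 and -0.83 ± 0.29 for EEF1E1 (edgeR adjusted p = 0.00115, 6.24e-05 and 0.0215). The EEF1E1 call was lost under total-count scaling (edgeR adjusted p = 0.0564) and without DMSO 1, combination 1 or combination 3 (adjusted p = 0.0698 to 0.124). AIMP2 shares 28.9% of its exonic bases with EIF2AK1 on the other strand, and EEF1E1 shares 18.7% with a read-through transcript; whether counting used strand was not stated in the sources used here.

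In the mitochondrial set, 7 of 15 tested genes fell under the combination, 1 rose, and the median log2 change was -0.27. With 57.5% of all tested genes called in this comparison, 8 of 15 is a share near the background and no result about the set. MARS2, the mitochondrial methionyl synthetase, had 24.1, 20.01 and 20.5 CPM in the combination libraries, 26.5, 33.3 and 27.4 CPM with MI-3454, 31.8, 27.7 and 30.7 CPM with gilteritinib and 36.3, 37.9 and 43.1 CPM with DMSO. The combination libraries were lowest and the DMSO libraries highest, a log2 change of -0.85 ± 0.13 (edgeR adjusted p = 2.67e-05). EARS2, which charges glutamate, had 24.2, 23.8 and 20.3 CPM in the combination libraries, 28.6, 30.6 and 32.5 CPM with MI-3454, 42.2, 43.5 and 39.98 CPM with gilteritinib and 36.02, 40.8 and 39.2 CPM with DMSO. Here the gilteritinib and DMSO libraries overlapped while the combination lay below all others (log2 change against DMSO -0.76 ± 0.12, edgeR adjusted p = 6.16e-05).

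WARS2 and NARS2, the mitochondrial tryptophanyl and asparaginyl enzymes, were the next largest falls. WARS2 had 11.7, 9.85 and 10.1 CPM in the combination libraries, 17.2, 17.1 and 13.8 CPM with MI-3454, 15.7, 14.3 and 17.95 CPM with gilteritinib and 17.5, 17.5 and 18.3 CPM with DMSO. NARS2 had 10.96, 12.2 and 13.4 CPM in the combination libraries, 14.96, 15.9 and 16.2 CPM with MI-3454, 16.1, 18.5 and 15.1 CPM with gilteritinib and 19.6, 18.4 and 19.9 CPM with DMSO. In both the combination libraries stood below every other library, with log2 changes of -0.74 ± 0.15 for WARS2 and -0.68 ± 0.14 for NARS2 (edgeR adjusted p = 0.000357 and 0.000682). YARS2, PARS2 and IARS2 also fell, with log2 changes of -0.58, -0.59 and -0.31 in that order. The PARS2 call was lost under total-count scaling and without DMSO 2 or combination 3 (edgeR adjusted p = 0.0532 to 0.11). The IARS2 call was lost under total-count scaling, in a single fit of all 12 libraries, and without DMSO 1, DMSO 3 or any 1 combination library (edgeR adjusted p = 0.0579 to 0.183).

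HARS2, the mitochondrial histidyl synthetase, was the member that rose. It starts head to head with HARS1, the cytosolic histidyl gene, on chromosome 5 (HARS1 at chr5:140673904-140691862, minus strand, and HARS2 at chr5:140691426-140699318, plus strand, GRCh38). HARS2 had 31.5, 36.9 and 32.8 CPM in the combination libraries, 28.02, 33.98 and 30.2 CPM with MI-3454, 27.00, 26.1 and 27.8 CPM with gilteritinib and 26.9, 27.5 and 26.4 CPM with DMSO, whereas HARS1 had 48.7, 47.3 and 46.3 CPM in the combination libraries, 55.7, 59.8 and 64.5 CPM with MI-3454, 59.5, 60.3 and 53.9 CPM with gilteritinib and 64.6, 65.6 and 66.1 CPM with DMSO. The neighbours thus moved in opposite directions under the combination, with log2 changes of 0.32 ± 0.12 for HARS2 and -0.46 ± 0.10 for HARS1 (edgeR adjusted p = 0.0276 and 0.00111). The rise of HARS2 was not called by DESeq2 (adjusted p = 0.0525), without the filter on low counts (edgeR adjusted p = 0.173), or without DMSO 1, DMSO 3, combination 2 or combination 3 (edgeR adjusted p = 0.0562 to 0.181). The genes overlap, and 15.8% of the exonic bases of HARS2 and 8.38% of those of HARS1 lie in another gene.

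With MI-3454 alone, a smaller part of the cytosolic set fell. Of 19 cytosolic genes 12 fell and none rose, where 19.0% of all tested genes changed, 10.1% upward and 8.95% downward; the median log2 change was -0.47, beside 0.00 for all genes. Among the genes that fell were 9 of 12 outside the complex and 3 of 7 within it. WARS1 fell most (-1.13 ± 0.12, edgeR adjusted p = 3.22e-05), followed by GARS1 (-0.86 ± 0.12), SARS1 (-0.80 ± 0.11), AARS1 (-0.70 ± 0.11), TARS1 (-0.64 ± 0.13) and IARS1 (-0.61 ± 0.12), with edgeR adjusted p no higher than 0.00433. SARS1, the seryl enzyme, had 68.5, 57.7 and 56.8 CPM in the combination libraries, 88.9, 82.6 and 97.5 CPM with MI-3454, 87.95, 86.7 and 82.7 CPM with gilteritinib and 152, 164 and 153 CPM with DMSO, and its libraries under either single agent overlapped each other and lay between the combination and DMSO. The other 6 called genes, CARS1, MARS1, FARSB, LARS1, YARS1 and NARS1, changed by -0.44 to -0.52. Of those, CARS1 kept its call under every alternative, whereas the other 5 lost it without at least 1 library. MARS1 lost it without MI-3454 1. FARSB, LARS1, YARS1 and NARS1 each lost it without DMSO 3 or MI-3454 1, FARSB, LARS1 and NARS1 also without DMSO 1, and YARS1 and NARS1 also without MI-3454 2 (edgeR adjusted p over these 5 genes 0.0547 to 0.134). FARSB and LARS1 were also not called under total-count scaling (edgeR adjusted p = 0.0584 and 0.0556). EPRS1, at -0.41 ± 0.14 and not called, was called without DMSO 2 (-0.50, edgeR adjusted p = 0.0168) and in 4 other settings (adjusted p = 0.00156 to 0.0292).

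Outside the cytosolic set, 1 of 15 tested mitochondrial genes and 2 of 3 scaffolds were called with MI-3454, where 19.0% of all tested genes changed. With counts this small, nothing is drawn from them about either set. MARS2 was the only mitochondrial gene of 15 called (-0.43 ± 0.14, edgeR adjusted p = 0.0494; median of the set -0.14). It was no longer called without any of the 3 DMSO libraries or without MI-3454 1 or MI-3454 3 (edgeR adjusted p = 0.0525 to 0.19), nor under total-count scaling, DESeq2 or without the filter (adjusted p = 0.0503 to 0.0949). AIMP1 (-0.40 ± 0.12) and AIMP2 (-0.52 ± 0.14) fell (edgeR adjusted p = 0.04 and 0.0207), and EEF1E1 was at -0.06 ± 0.29. The AIMP1 call was lost without any 1 of 5 of the 6 libraries, all but DMSO 2 (edgeR adjusted p = 0.0726 to 0.151). The AIMP2 call was lost without DMSO 3, MI-3454 1 or MI-3454 2 (edgeR adjusted p = 0.0828 to 0.098).

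With gilteritinib alone, 13 of 19 cytosolic genes fell and none rose, where 15.1% of all tested genes changed, 6.92% upward and 8.18% downward. The median log2 change was -0.68, beside -0.00063 for all genes, and 9 of 12 genes outside the complex and 4 of 7 within it were called. WARS1 stood out with -1.75 ± 0.10, 3.36-fold lower with gilteritinib than with DMSO (edgeR adjusted p = 4.17e-07). GARS1 followed with -1.32 ± 0.11 (edgeR adjusted p = 8.28e-06), then CARS1 with -0.94 ± 0.10, MARS1 with -0.90 ± 0.10, SARS1 with -0.87 ± 0.09 and IARS1 with -0.81 ± 0.12 (edgeR adjusted p at most 0.000697).

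CARS1 and MARS1, which charge cysteine and methionine, showed the same order of groups. CARS1 had 62.9, 65.3 and 62.2 CPM in the combination libraries, 98.1, 97.7 and 106 CPM with MI-3454, 76.9, 70.5 and 78.5 CPM with gilteritinib and 134, 152 and 146 CPM with DMSO. MARS1 had 100.2, 100.4 and 107 CPM in the combination libraries, 164, 179 and 179.6 CPM with MI-3454, 127, 139.7 and 137 CPM with gilteritinib and 228, 254 and 270.4 CPM with DMSO. In both, the 4 groups were separate, with the combination lowest, then gilteritinib, then MI-3454, then DMSO. MARS1 shares 13.3% of its exonic bases with other genes, among them the stress gene DDIT3 on the opposite strand. The 7 further called genes lay between -0.45 (FARSB) and -0.78 (TARS1), and FARSB lost its call without DMSO 3, gilteritinib 1 or gilteritinib 3 (edgeR adjusted p = 0.055 to 0.0787).

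The cytosolic genes not called with gilteritinib were FARSA, VARS1, QARS1, HARS1, KARS1 and RARS1, with log2 changes of -0.20 (KARS1) to 0.26 (QARS1). The gilteritinib libraries of QARS1 all lay above its DMSO libraries. QARS1 was called higher with all 6 libraries and a replicate block (0.26, edgeR adjusted p = 0.00383) and without DMSO 2 (0.34, edgeR adjusted p = 0.0221). Leaving out the library highest in RN7SL1 in each group also gave the call (0.32, edgeR adjusted p = 0.00434). RARS1 was called lower without DMSO 2 (-0.33, edgeR adjusted p = 0.0222) and without the libraries highest in RN7SL1 (-0.26, edgeR adjusted p = 0.0208). KARS1 was called lower with the block (-0.20, edgeR adjusted p = 0.0295). Mitochondrial genes had a median of 0.00, and MARS2 (-0.37 ± 0.12, edgeR adjusted p = 0.0487) was again the only one called. That call was lost without any 1 library other than DMSO 2 (edgeR adjusted p = 0.0711 to 0.176) and under total-count scaling, DESeq2 or no filter (adjusted p = 0.0605 to 0.0737). Of the scaffolds, EEF1E1 was called (-0.73 ± 0.22, edgeR adjusted p = 0.044), with its gilteritinib libraries all below its DMSO libraries. It was not called without any 1 library other than DMSO 2 (edgeR adjusted p = 0.0812 to 0.171) or in 3 other settings (adjusted p = 0.0502 to 0.123). AIMP1 stood at -0.32 ± 0.10 and was not called in the main fit. It was called without DMSO 2 (-0.40, edgeR adjusted p = 0.00438) and with a replicate block (-0.32, edgeR adjusted p = 0.00091). The single fit of 12 libraries (edgeR adjusted p = 0.031) and leaving out the libraries highest in RN7SL1 (edgeR adjusted p = 0.00163) gave the call too. AIMP2 stood at 0.04 ± 0.12.

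Holders of the C/EBP-ATF letters and other cytosolic genes can be set side by side. The 7 holders were all called lower under the combination, MI-3454 and gilteritinib, with median log2 changes of -1.70, -0.61 and -0.81 in that order. Of 9 cytosolic genes with a promoter and no match, 8 were called lower under the combination, 3 under MI-3454 and 4 under gilteritinib, with medians of -0.86, -0.32 and -0.20. Of all tested genes, 28.4%, 8.95% and 8.18% were lower in these comparisons, in the same order. WARS1 and SARS1, both among the largest falls under the single agents, were in the group without a match, as were FARSA, QARS1 and HARS1. These counts rest on the same libraries as the falls themselves and describe the window searched; nothing is drawn from them about the factor.

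Comparison of cytosolic and mitochondrial enzymes for the same amino acid gave a like picture. In 16 pairs (EPRS1 and FARS2 each entering 2 of them), the cytosolic gene had the lower log2 change in 16 under the combination, in 15 under MI-3454 and in 16 under gilteritinib. The median difference, cytosolic minus mitochondrial, was -0.82, -0.31 and -0.72 in the same order. The widest gap under the combination was that of the alanyl pair, with -2.17 for AARS1 and -0.17 for AARS2, a difference of -2.00. The narrowest was that of the asparaginyl pair, with -0.80 for NARS1 and -0.68 for NARS2, a difference of -0.12. With gilteritinib the tryptophanyl pair was widest, with -1.75 for WARS1 and -0.15 for WARS2. There the pair of FARSA (0.11) with FARS2 (0.12) was narrowest, at a difference of -0.0069. Under MI-3454 the pair that ran the other way was FARSA (-0.06) with FARS2 (-0.14), and EPRS1 with EARS2 differed by -0.07. The 3 comparisons share the DMSO libraries, and the difference within pairs was not tested.

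**Figure D3:**
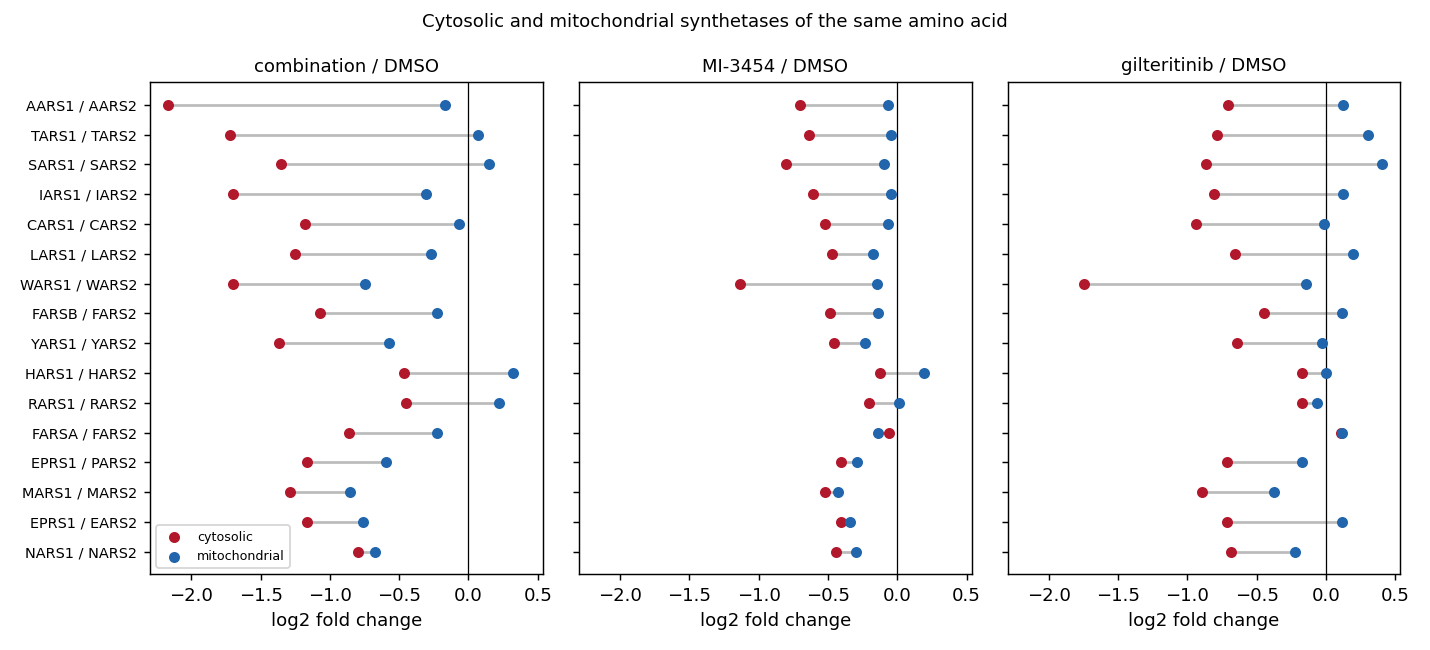
Log2 fold change of the cytosolic (red) and the mitochondrial (blue) synthetase of each of 16 pairs under the combination (left), MI-3454 (middle) and gilteritinib (right) against DMSO, ordered by the gap in the combination. The red point lies left of the blue one in all 16 pairs of the left panel, by -2.00 in the alanyl and -0.12 in the asparaginyl pair.

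Most of the cytosolic set was lower with gilteritinib added to MI-3454. Of 19 cytosolic genes 17 were lower in the combination than with MI-3454, where 29.2% of all tested genes changed, 14.1% upward and 15.1% downward; the median was -0.66, beside -0.01 for all genes. AARS1 changed most (-1.46 ± 0.11), then GARS1 (-1.41 ± 0.09), IARS1 (-1.08 ± 0.09), TARS1 (-1.07 ± 0.10), YARS1 (-0.91 ± 0.09) and FARSA (-0.79 ± 0.12), with edgeR adjusted p at most 0.000627. RARS1 (-0.24) and QARS1 (0.01) were not called, although RARS1 was called without MI-3454 3 (-0.31, edgeR adjusted p = 0.0131). Among mitochondrial genes WARS2 (-0.59 ± 0.15), MARS2 (-0.42 ± 0.13) and EARS2 (-0.41 ± 0.12) were lower (edgeR adjusted p = 0.0126, 0.0328 and 0.022). Each of these 3 calls was lost without combination 2 or combination 3, that of WARS2 also without MI-3454 1 and that of MARS2 also without MI-3454 2 (edgeR adjusted p = 0.0511 to 0.141). Of the cytosolic calls, HARS1, NARS1 and VARS1 were lost without 1 or more libraries, combination 2 in each case (edgeR adjusted p = 0.0527 to 0.105). Of the 3 scaffolds 0 were called by edgeR or by DESeq2, and 0 had an unadjusted edgeR p under 0.05. EEF1E1 (-0.76 ± 0.35) was called without MI-3454 3 (-1.02, edgeR adjusted p = 0.0128) and without combination 2 (-1.22, edgeR adjusted p = 0.0383). With all libraries of this comparison it was called without the filter on low counts (-0.80, edgeR adjusted p = 0.00773).

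With MI-3454 added to gilteritinib, both compartments were lower. Of 19 cytosolic genes 16 were lower in the combination than with gilteritinib, and of 15 mitochondrial genes 10 were lower and 1 was higher, where 60.4% of all tested genes changed, 30.1% upward and 30.3% downward. The medians were -0.57 for the cytosolic and -0.41 for the mitochondrial set, beside 0.00 for all genes. Total-count scaling ended the downward call in CARS1, HARS1, RARS1, AARS2, FARS2, NARS2 and TARS2 (adjusted p = 0.0654 to 0.363). Of these, CARS1, RARS1, AARS2, FARS2 and TARS2 also lost it without at least 1 gilteritinib or combination library (edgeR adjusted p = 0.0503 to 0.0922). AARS1 (-1.45 ± 0.09), FARSA (-0.96 ± 0.10), GARS1 (-0.96 ± 0.07), TARS1 (-0.93 ± 0.09), IARS1 (-0.88 ± 0.09) and VARS1 (-0.73 ± 0.09) changed most among cytosolic genes (edgeR adjusted p at most 1.44e-05).

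FARSA, the catalytic subunit of the cytosolic phenylalanyl enzyme, and VARS1, the valyl enzyme, differed from the other leading genes. FARSA had 147, 132 and 121 CPM in the combination libraries, 219, 208 and 269.7 CPM with MI-3454, 247, 293 and 245 CPM with gilteritinib and 219, 279 and 228 CPM with DMSO. VARS1 had 290.3, 265 and 244 CPM in the combination libraries, 333, 323 and 391 CPM with MI-3454, 446, 466 and 419.8 CPM with gilteritinib and 356, 451 and 409 CPM with DMSO. For both, the combination libraries lay below all others, while the libraries of each single agent overlapped those of DMSO. WARS1 did not follow: at 0.06 ± 0.07 between combination and gilteritinib (95% interval -0.09 to 0.21, edgeR adjusted p = 0.484), no difference was detected between its levels with and without MI-3454.

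The mitochondrial genes with the largest differences between combination and gilteritinib were EARS2 (-0.86 ± 0.10), WARS2 (-0.59 ± 0.14), YARS2 (-0.54 ± 0.11) and MARS2 (-0.47 ± 0.11), with edgeR adjusted p at most 0.00189. YARS2, the mitochondrial tyrosyl enzyme, had 16.4, 18.7 and 17.2 CPM in the combination libraries, 23.4, 20.9 and 22.2 CPM with MI-3454, 28.6, 24.3 and 23.3 CPM with gilteritinib and 25.5, 25.9 and 26.7 CPM with DMSO, with the gilteritinib libraries above the combination and partly overlapping DMSO and MI-3454. HARS2 was again the member that was higher (0.33 ± 0.10, edgeR adjusted p = 0.00911), a call lost without combination 2 (0.26, edgeR adjusted p = 0.0723). AIMP2 was the scaffold called (-0.81 ± 0.10, edgeR adjusted p = 7.5e-06), and its combination libraries all lay below its gilteritinib libraries.

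Set directly against each other, MI-3454 and gilteritinib differed in a few members. WARS1 (0.61 ± 0.09), GARS1 (0.45 ± 0.09), CARS1 (0.41 ± 0.09) and MARS1 (0.36 ± 0.09) were higher with MI-3454 than with gilteritinib (edgeR adjusted p = 0.000933, 0.00553, 0.0108 and 0.0213), which makes 4 of 19 cytosolic genes where 17.4% of all tested genes changed, 9.96% upward. The median of the cytosolic set was 0.14, beside 0.01 for all genes. EARS2 (-0.46 ± 0.11), LARS2 (-0.38 ± 0.10) and TARS2 (-0.36 ± 0.11) were lower with MI-3454 (edgeR adjusted p = 0.0107, 0.0182 and 0.041), 3 of 15 mitochondrial genes where 7.43% of all genes fell. AIMP2 was lower as well (-0.57 ± 0.12, edgeR adjusted p = 0.00656). In either direction, the cytosolic and mitochondrial shares called are near the 17.4% of all tested genes and are no result about the sets. The called cytosolic genes were higher and the called mitochondrial genes lower with MI-3454, but VARS1 was an exception in other settings. At -0.36 ± 0.12 (edgeR adjusted p = 0.0551) it was not called here, and it was called lower by DESeq2, under total counts, without the filter, in the fit of 12 libraries, without the library highest in RN7SL1 in each group and without MI-3454 3 (adjusted p = 1.55e-05 to 0.0381). FARSA and QARS1 were also called lower without MI-3454 3 (edgeR adjusted p = 0.0348 and 0.0382). The same held without the library highest in RN7SL1 in each group (edgeR adjusted p = 0.0138 and 0.00389). EPRS1 and NARS1 were called higher in both of these settings (edgeR adjusted p = 0.00102 to 0.0429).

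The mitochondrial leucyl and threonyl genes are examples of the lower calls. LARS2 had 38.3, 41.3 and 36.9 CPM in the combination libraries, 41.3, 41.1 and 42.1 CPM with MI-3454, 56.2, 50.7 and 53.9 CPM with gilteritinib and 44.5, 44.3 and 51.6 CPM with DMSO. TARS2 had 36.5, 35.99 and 34.1 CPM in the combination libraries, 35.4, 29.7 and 33.4 CPM with MI-3454, 41.97, 43.03 and 40.6 CPM with gilteritinib and 29.7, 37.7 and 34.2 CPM with DMSO. In both, the gilteritinib libraries were the highest group, above MI-3454 without overlap and, for TARS2, above DMSO as well. TARS2 was not called between gilteritinib and DMSO in the main fit (0.31 ± 0.12, edgeR adjusted p = 0.0982). It was called higher with gilteritinib in the fit of the same libraries with a replicate block (0.31, edgeR adjusted p = 0.00472). The same held without DMSO 2 (0.39, edgeR adjusted p = 0.0145) and without the library highest in RN7SL1 in each group (0.38, edgeR adjusted p = 0.00739). Several calls between the single agents rest on few libraries: MARS1 lost its call without gilteritinib 1, gilteritinib 3 or MI-3454 2 (edgeR adjusted p = 0.0653 to 0.122), EARS2 without gilteritinib 1 or MI-3454 1 (0.0516 to 0.0535), LARS2 without gilteritinib 1, gilteritinib 3, MI-3454 1 or MI-3454 2 (0.0601 to 0.104) and TARS2 without any 1 library but MI-3454 3 (0.0569 to 0.162).

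**Figure D4:**
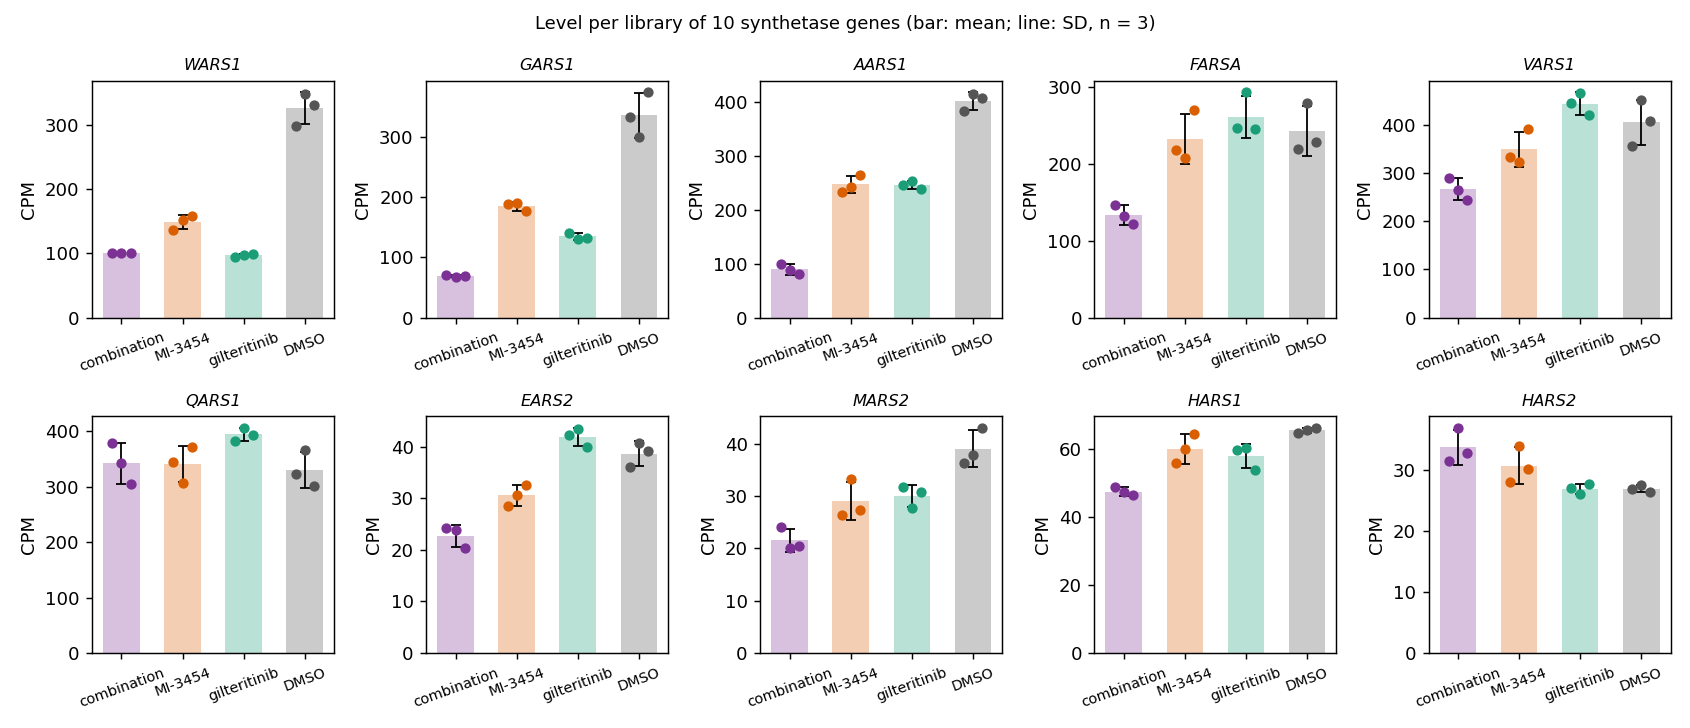
CPM of 10 synthetase genes in each library by group; points are libraries, bars are means and lines are SDs of 3 libraries. GARS1 and AARS1 are lowest in the combination (69.2 ± 1.95 and 89.2 ± 9.78 CPM), WARS1 is low with both the combination and gilteritinib (101 ± 0.292 and 97.1 ± 2.19 CPM), and QARS1 lies between 301 and 407 CPM in all 12 libraries.

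The interaction term sets the combination against both single agents added together on the log2 scale. Of 19 cytosolic genes 1 departed upward and 3 downward, and of 15 mitochondrial genes 1 departed downward, where 15.3% of all tested genes were called, 6.55% upward and 8.74% downward. Of 3 scaffolds 0 were called by edgeR or DESeq2, and 0 had an unadjusted edgeR p under 0.05. No departure was detected in GARS1, at -2.28 under the combination beside -0.86 with MI-3454 and -1.32 with gilteritinib (interaction -0.11 ± 0.13, edgeR adjusted p = 0.621).

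WARS1 departed upward. Its change under the combination was less than the sum, with -1.70 beside -1.13 with MI-3454 and -1.75 with gilteritinib, an interaction of 1.19 ± 0.12 (edgeR adjusted p = 1.28e-05). AARS1 departed downward (-0.76 ± 0.13, edgeR adjusted p = 0.00153), as did FARSA (-0.91 ± 0.18, edgeR adjusted p = 0.00314). These 3 calls held under every alternative tried. VARS1 (-0.52 ± 0.16, edgeR adjusted p = 0.0341) and the mitochondrial EARS2 (-0.53 ± 0.14, edgeR adjusted p = 0.0214) also departed downward. VARS1 lost its call without any 1 of 9 of the 12 libraries (all but DMSO 2, MI-3454 2 and combination 1; edgeR adjusted p = 0.0567 to 0.121), and EARS2 without DMSO 1, gilteritinib 1, gilteritinib 2, combination 2 or combination 3 (edgeR adjusted p = 0.05001 to 0.0793). FARSB, the partner subunit of FARSA, had an interaction of -0.14 ± 0.15 (edgeR adjusted p = 0.563).

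**Figure D5:**
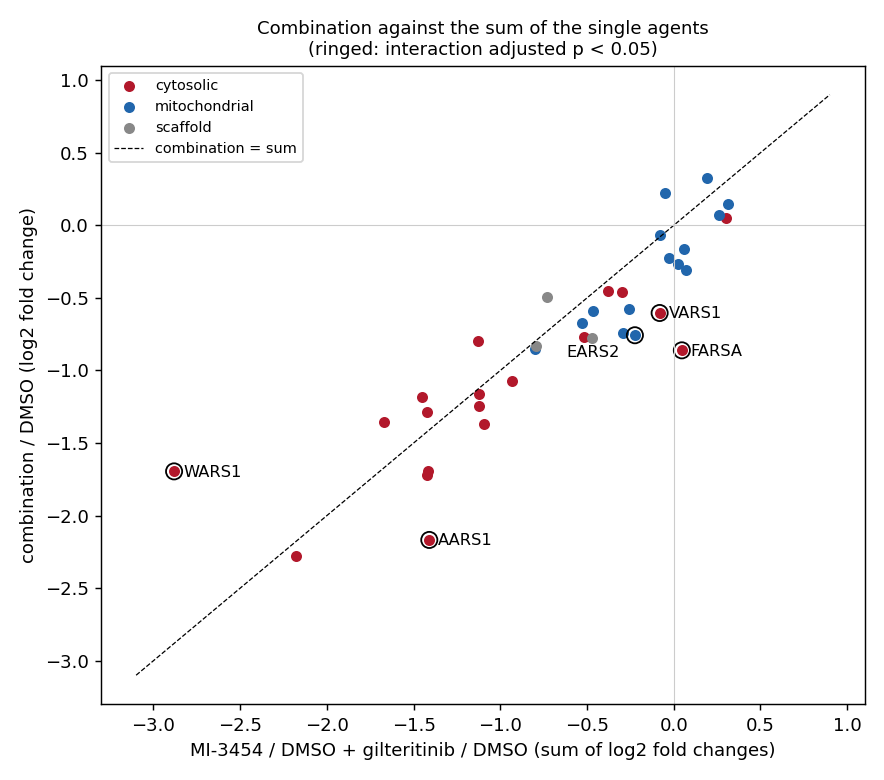
Log2 change of each tested member under the combination against DMSO (vertical axis) plotted on the sum of its log2 changes under MI-3454 and under gilteritinib (horizontal axis); the dashed line marks equality and rings mark an interaction with adjusted p under 0.05. WARS1 lies above the line (interaction 1.19), and AARS1 (-0.76), FARSA (-0.91), VARS1 (-0.52) and EARS2 (-0.53) lie below it; every point shares the DMSO libraries on both axes.

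Genes that work with the synthetases were read from the same fits. ATF4 itself had 244, 229 and 204 CPM in the combination libraries, 507, 467 and 534 CPM with MI-3454, 387, 415 and 398 CPM with gilteritinib and 604, 614 and 536 CPM with DMSO. It fell under the combination (-1.37 ± 0.11, edgeR adjusted p = 2.51e-08) and with gilteritinib (-0.55 ± 0.11, edgeR adjusted p = 0.00442), stood at -0.22 ± 0.12 with MI-3454 (edgeR adjusted p = 0.24), and had an interaction of -0.61 ± 0.14 (edgeR adjusted p = 0.00832). Of 14 regulators and kinases of the stress response, 10 were lower under the combination, 5 with MI-3454 and 5 with gilteritinib, where 1 was higher. The shares of all tested genes that were lower were 28.4% (combination), 8.95% (MI-3454) and 8.18% (gilteritinib). The largest falls under the combination were those of TRIB3 (-3.66 ± 0.13), a pseudokinase that restrains ATF4, SESN2 (-2.41 ± 0.12), a leucine sensor, and ATF5 (-1.65 ± 0.16), with edgeR adjusted p at most 1.38e-07.

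All 10 enzymes of amino acid synthesis were lower under the combination, 9 with gilteritinib and 8 with MI-3454, with median log2 changes of -2.65, -1.50 and -0.90 in the order combination, gilteritinib, MI-3454. The shares of all tested genes lower in these comparisons were 28.4%, 8.18% and 8.95%. Under the combination PHGDH (-4.25 ± 0.14) and PSAT1 (-4.12 ± 0.15), which make serine, and CTH (-3.80 ± 0.18), which makes cysteine, fell most (edgeR adjusted p at most 3.24e-11). ASNS, the asparagine synthetase, is low in these cells: it had 0.869, 0.741 and 1.56 CPM in the combination libraries, 2.01, 5.35 and 2.94 CPM with MI-3454, 0.585, 1.09 and 0.771 CPM with gilteritinib and 6.91, 7.59 and 6.48 CPM with DMSO. Its combination and gilteritinib libraries overlapped at the bottom, the MI-3454 libraries lay between, and the log2 changes were -2.78 ± 0.29 under the combination, -1.02 ± 0.30 with MI-3454 and -3.13 ± 0.26 with gilteritinib (edgeR adjusted p = 3.72e-07, 0.0321 and 8.28e-06). The MI-3454 call of ASNS was lost without MI-3454 1 or any 1 DMSO library (edgeR adjusted p = 0.0554 to 0.114).

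Partners of the mitochondrial enzymes had median log2 changes of -0.45 (charging partners) and -0.37 (translation factors) under the combination. Of 4 genes for charging by other routes 2 fell under the combination and none rose, a share called near the 57.5% of all tested genes. They were GATC (-0.52 ± 0.12) and QRSL1 (-0.50 ± 0.12), subunits of the amidotransferase that makes glutaminyl-tRNA in mitochondria (edgeR adjusted p = 0.00167 and 0.00243). Of 9 tested mitochondrial translation factors 5 fell and none rose, a share called near the 57.5% of all tested genes, led by MRPL58 (-0.85 ± 0.14), a ribosome rescue factor, TUFM (-0.70 ± 0.13), the elongation factor that carries charged tRNA, and GFM2 (-0.53 ± 0.15), with edgeR adjusted p at most 0.00531.

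In the cytosol, 7 of 8 tested elongation and ternary complex factors fell under the combination, 1 with MI-3454 and 3 with gilteritinib, where 28.4%, 8.95% and 8.18% of all tested genes fell in that order. EIF2S2 (-1.16 ± 0.11) and EIF2S1 (-1.11 ± 0.12), subunits of the factor that brings the initiator tRNA, and EIF5A (-0.67 ± 0.12) led (edgeR adjusted p at most 0.000143). Under the combination 28.4% of all tested genes fell and 29.2% rose. Of 8 genes of tRNA maturation and export 5 fell and 1 rose, led by TSEN15 (-1.27 ± 0.16), a subunit of the tRNA splicing endonuclease, XPOT (-1.08 ± 0.12), the tRNA exporter, and TSEN54 (-0.62 ± 0.16), with edgeR adjusted p at most 0.00299. Of 6 editing and selenocysteine genes 3 fell and 1 rose, beside 57.5% of all tested genes called. Among them the tRNA editing genes DTD2 (-1.003 ± 0.22) and DTD1 (-0.61 ± 0.14) fell, while SEPSECS (0.64 ± 0.14), which makes selenocysteinyl-tRNA, rose (edgeR adjusted p at most 0.00153).

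Interferon gamma genes were followed because WARS1 belongs to that response. Of 6 tested genes 5 rose under the combination and none fell, where 29.2% of all tested genes rose, with PSMB9 (0.78 ± 0.14), TAP1 (0.56 ± 0.11) and IRF1 (0.40 ± 0.11) the largest (edgeR adjusted p at most 0.00662), while WARS1 fell. With each single agent 1 of the 6 was called, a share near that of all tested genes (19.0% with MI-3454 and 15.1% with gilteritinib), PSMB8 with MI-3454 (0.48 ± 0.12, edgeR adjusted p = 0.0145) and GBP2 with gilteritinib (0.47 ± 0.14, edgeR adjusted p = 0.045). Called interactions went both ways, upward in IRF1 (0.87 ± 0.18, edgeR adjusted p = 0.00523) and downward in GBP2 (-0.74 ± 0.20, adjusted p = 0.0223) and PSMB8 (-0.44 ± 0.14, adjusted p = 0.0384). The interaction of WARS1 was upward. IRF1 stood at 63.04 ± 2.90 CPM in the combination, 40.04 ± 6.83 CPM with MI-3454, 41.1 ± 5.07 CPM with gilteritinib and 47.7 ± 5.70 CPM with DMSO (SD, n = 3 each).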

How the data were processed

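Total RNA of MOLM-13 cells was depleted of ribosomal RNA and made into TruSeq libraries, per the labels' protocols. The authors deposited raw counts per Ensembl gene for each of 12 libraries; per the submitters' processing notes the tools included cutadapt 2.1, STAR 2.7.1a and HTSeq 0.11.2 with build GRCh38. The strand setting and the annotation release were not stated in the sources used here. Read counts in the summary lines of each table stayed out of library sizes and tests. No-feature reads took 15.6% to 36.5% and ambiguous reads 4.65% to 10.3% of the reads counted to genes, to no feature or as ambiguous. Unaligned reads and reads without a unique alignment stayed out of these shares. Titles gave the groups, since the treatment tags of some MI-3454 and some combination libraries carry other numbers.

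Genes were kept by filterByExpr over all 12 libraries (13972 genes). Each comparison was fitted on its own 6 libraries with edgeR 4.0.16 (TMM scaling, quasi-likelihood test) in R 4.3.3, and the interaction on all 12; p-values were adjusted by Benjamini-Hochberg over all tested genes, with a threshold of 0.05. The test was checked on simulated data. SE is the log2 change divided by the square root of F. CPM uses TMM over 12 libraries; levels per kb divide by the exonic length in GENCODE release 29, joined over isoforms. Alternatives were RLE scaling, total counts, DESeq2 1.42.0, no filter, a single fit of 12 libraries, a replicate block, leaving out the library highest in RN7SL1 in each group, and leaving out each library. Members and lists were chosen with earlier results of these data known. Values per library are given for the called cytosolic genes with the 6 largest and the called mitochondrial genes with the 4 largest changes, called scaffolds, and members called against their list; from other lists up to 3 called genes are named, and ATF4 and ASNS. A single marker of another cell type is not reported here.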

Additional observations from a re-analysis of the deposited data

Results flagged for a closer look

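Effects of gilteritinib that differed with and without MI-3454 (edgeR interaction term, log2, adjusted p under 0.05) are listed here with their values. Among the synthetases they were WARS1 with 1.19, FARSA with -0.91, AARS1 with -0.76, EARS2 with -0.53 and VARS1 with -0.52. WARS1 was 3.36-fold lower with gilteritinib than with DMSO, and 1.47-fold lower in the combination than with MI-3454. FARSA was at 0.11 with gilteritinib against DMSO and at -0.79 in the combination against MI-3454.

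Among regulators of the stress response, TRIB3 had -1.46, ATF5 -0.90, PPP1R15A -0.63, ATF4 -0.61 and CEBPB 1.22. CEBPB was lower with gilteritinib (-0.92 against DMSO) and higher in the combination than with gilteritinib (1.10). Among enzymes of amino acid synthesis, PHGDH had -1.72, PSAT1 -0.92, ALDH18A1 -0.62, GPT2 -0.62 and SHMT2 -0.58. PPP1R15A and SHMT2 fall outside the rule for named genes and were added after their values were seen. Among genes of tRNA handling and elongation, EIF5A had -0.74, DTD1 -0.71, ELAC2 -0.41 and TRNT1 0.69. Among interferon gamma genes, IRF1 had 0.87, GBP2 -0.74 and PSMB8 -0.44.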

How the results depend on the processing

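No called member changed sign under any alternative, and 84 of 120 member calls over 7 comparisons were kept under all of them. Under total-count scaling the median log2 change of all genes was 0.10 (combination against DMSO), 0.09 (combination against MI-3454), 0.13 (combination against gilteritinib) and 0.11 (interaction), beside -0.00066, -0.01, 0.00 and -0.02 under TMM. Counts given here are those that moved by over 1.5 times.
Genes changed numbered 4250 without the library highest in RN7SL1 in each group (combination 1, MI-3454 3, gilteritinib 2 and DMSO 2) for gilteritinib against DMSO, 5133 for MI-3454 against gilteritinib and 3478 for the interaction. In that setting cytosolic calls were 9 (MI-3454 against gilteritinib) and 9 (interaction), mitochondrial calls 2, 2, 5 and 3 (MI-3454 and gilteritinib against DMSO, MI-3454 against gilteritinib, interaction) and scaffold calls 2, 1 and 2 (gilteritinib against DMSO, combination against MI-3454, MI-3454 against gilteritinib). The cause was not tested.
Mitochondrial calls were 0 for MI-3454 and for gilteritinib against DMSO under total counts, DESeq2 and no filter; 2 for MI-3454 against DMSO and 5 for combination against MI-3454 in a single fit of 12 libraries; 1 under total counts for combination against MI-3454 and for MI-3454 against gilteritinib; and 0 for the interaction under total counts and no filter. Scaffold calls were 1 under total counts for MI-3454 against DMSO, 0 under total counts and DESeq2 for gilteritinib against DMSO, and 1 and 2 without the filter for combination against MI-3454 and for MI-3454 against gilteritinib.
In fits with a replicate block, 1678 genes changed with MI-3454 and 4928 with gilteritinib against DMSO. Cytosolic calls with MI-3454 against DMSO were 8 under the block, FARSB, LARS1, YARS1 and NARS1 being lost (edgeR adjusted p = 0.0837 to 0.121). Mitochondrial calls under the block were 0 (MI-3454 against DMSO), 2 (gilteritinib against DMSO), 1 (combination against MI-3454) and 1 (MI-3454 against gilteritinib), and scaffold calls 0 (MI-3454 against DMSO) and 2 (gilteritinib against DMSO). Same-numbered libraries had correlations of deviations from -0.36 to 0.34, and not every library correlated best with its own number. The largest across numbers joined libraries highest in RN7SL1 in their groups. MI-3454 3 had 0.47 with DMSO 2, 0.35 with gilteritinib 2 and 0.33 with combination 1. What these libraries share was not tested.
Leaving out 1 library at a time gave these ranges, in the order combination, MI-3454 and gilteritinib against DMSO, combination against MI-3454, combination against gilteritinib, MI-3454 against gilteritinib, interaction. Genes changed: 6802 to 8558, 1815 to 2961, 1243 to 3985, 2456 to 5074, 7270 to 8298, 1588 to 4690, 1305 to 2698. With all libraries they were 8037, 2658, 2110, 4075, 8439, 2430 and 2136. The counts that moved by over 1.5 times came, for gilteritinib against DMSO, without DMSO 2 (3985) or without any other library (1243 to 1401); for combination against MI-3454, without combination 2 (2456) or 3 (2464); for MI-3454 against gilteritinib, without MI-3454 3 (4690) or gilteritinib 1 (1588); and for the interaction, without combination 2 (1365) or 3 (1305). Cytosolic calls: 17 to 18, 7 to 13, 12 to 15, 14 to 18, 14 to 16, 3 to 9, 3 to 5. Mitochondrial calls: 5 to 8, 0 to 1, 0 to 2, 0 to 5, 9 to 12, 0 to 4, 0 to 1. Scaffold calls: 2 to 3, 0 to 2, 0 to 2, 0 to 1, 1 to 1, 1 to 2, 0 to 0. Depth limits the lowest members, VARS2, SARS2, PARS2 and EEF1E1.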
